A study of Homo sapiens with 24 samples.

Results

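The 6 genes described here are TM4SF4 and the other annotated members of the L6 family, namely TM4SF1, TM4SF5, TM4SF18, TM4SF19 and TM4SF20, out of 60675 rows of the count table. They were taken by gene symbol, and TM4SF4, for which the family is described, was chosen by its counts at 24 h, which differed strongly between C/EBPδ-inducible and CTRL cells. Expression of all 6 genes was measured by RNA-sequencing of rRNA-depleted total RNA from MIA PaCa-2, an established line of human pancreatic cancer cells. In the C/EBPδ-inducible line, which pools several clones, the vector holds the CEBPD cDNA behind a doxycycline-responsive Tet-On promoter, while in the CTRL line it lacks the cDNA. The lines also carry a fluorophore each from a separate vector, mVenus in the inducible and mCherry in the CTRL line. Cells of each line were collected after 0, 8, 24 and 48 h with 2 µg/mL doxycycline, with 3 wells per line and time, which gave 24 libraries. The sample labels list the dose at 0 h as well, but the study describes those cells as untreated, and they are treated as such here. No group was left without doxycycline at 8, 24 or 48 h. Within a line, an effect of doxycycline therefore cannot be told apart from one of time in culture. The wells are replicates of 2 cell populations, so that every test between lines measures the spread between wells and cannot tell C/EBPδ from another difference between the populations.

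L6 proteins are small membrane proteins with 4 transmembrane segments (the basis of the name) that resemble tetraspanins in topology but are not related to them in sequence. They are known to sit in the plasma membrane and in endosomes with integrins, receptor tyrosine kinases and tetraspanins, and several of them have been linked to migration and invasion of carcinoma cells. TM4SF1 is the L6 antigen of many carcinomas and of endothelium. TM4SF4 is found in intestine, liver and pancreatic islets, where it has been linked to the control of proliferation. TM4SF5 is known from liver, TM4SF19 from osteoclasts and macrophages, and TM4SF20 as a regulator of the cleavage of CREB3L1, a membrane-bound transcription factor.

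TM4SF18, TM4SF1 and TM4SF4 lie next to each other on chromosome 3 (GRCh38). TM4SF18 (ENSG00000163762) spans chr3:149318498-149334414 and TM4SF1 (ENSG00000169908) chr3:149369022-149377692, both on the minus strand, with 34607 bases between them. After another 97004 bases follows TM4SF4 (ENSG00000169903), on the plus strand at chr3:149474697-149503394. TM4SF19 (ENSG00000145107) lies far away on the same chromosome at chr3:196319342-196338503, TM4SF5 (ENSG00000142484) at chr17:4771884-4783213 and TM4SF20 (ENSG00000168955) at chr2:227362038-227381995. The sequences directly before the RefSeq transcription starts (GRCh38.p14) of the 3 clustered genes are printed because these neighbours behaved differently in the same cells. All 6 members matched a RefSeq promoter entry. Each sequence is written 5′ to 3′ on the strand of its gene, and the capitals mark matches to 4 motifs, on either strand, in the 250 bases before the start. The motifs were a pair of degenerate C/EBP forms (TTNNGNAA and TGNNGNAA), CCAAT and TATAAA. In TM4SF1, bases that an annotated exon covers were left off, so that its sequence ends 44 bases before the start. The RefSeq start of TM4SF18 (149333636) lies inside the span of the gene given above. Its sequence therefore lies inside that span as well, although no annotated exon covers it. The sequences are from chr3:149474447-149474696 (TM4SF4, plus strand), chr3:149377693-149377899 (TM4SF1, minus strand) and chr3:149333637-149333886 (TM4SF18, minus strand).
TM4SF4: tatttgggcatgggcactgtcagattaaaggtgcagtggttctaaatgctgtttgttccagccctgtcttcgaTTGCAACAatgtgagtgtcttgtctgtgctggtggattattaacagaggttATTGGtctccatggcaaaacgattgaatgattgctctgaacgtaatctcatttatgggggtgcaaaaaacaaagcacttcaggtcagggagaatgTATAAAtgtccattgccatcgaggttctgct
TM4SF1: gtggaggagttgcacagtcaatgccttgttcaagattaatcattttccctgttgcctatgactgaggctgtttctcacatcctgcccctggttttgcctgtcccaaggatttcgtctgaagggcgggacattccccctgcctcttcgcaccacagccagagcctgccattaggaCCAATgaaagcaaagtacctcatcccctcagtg
TM4SF18: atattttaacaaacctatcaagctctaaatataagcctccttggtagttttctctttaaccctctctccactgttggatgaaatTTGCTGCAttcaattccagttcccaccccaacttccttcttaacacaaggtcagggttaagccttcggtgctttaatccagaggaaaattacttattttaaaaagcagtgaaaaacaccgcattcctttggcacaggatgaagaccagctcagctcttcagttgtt
In TM4SF4, a match to TGNNGNAA lay on the opposite strand from base -177 to -170, a CCAAT on the opposite strand from -126 to -122 and a TATAAA from -31 to -26. In TM4SF1, a CCAAT stood from -76 to -72, and neither C/EBP form was found. In TM4SF18, a single match to TGNNGNAA lay on the opposite strand from -166 to -159. Such matches are common, since TGNNGNAA was found in 37.7%, TTNNGNAA in 33.2%, CCAAT in 32.0% and TATAAA in 10.7% of 35116 promoters over the same 250 bases. TTNNGNAA and TGNNGNAA differ in 1 base, so that the same stretch cannot match both, although shifted matches can overlap. A match of these letters is a description of the sequence.

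Library totals ranged from 12731237 to 22598595 counts with a median of 18959363.5. The floor is 3 counts, and a group is called at the floor if none of its libraries had more. Levels are given as CPM, counts scaled with TMM to a common library size, as mean ± SD over the 3 libraries of a group. CEBPD reached 3.94 ± 0.242 CPM in CTRL cells and 21.5 ± 2.30 CPM in C/EBPδ-inducible cells at 0 h, so that the inducible cells held more CEBPD mRNA before doxycycline, and 246 ± 17.1, 308 ± 10.8 and 205 ± 6.49 CPM in the inducible cells at 8, 24 and 48 h. The counts do not separate the construct from the endogenous gene. Both lines expressed VIM strongly, at 5372 CPM or more in every library. KRT8 lay between 1004 and 1598 CPM in CTRL libraries but between 34.4 and 76.0 CPM in C/EBPδ-inducible libraries, and KRT18 and KRT19 were lower in all inducible libraries as well. KRT7, low in both lines, had a median of 0.445 CPM in CTRL and 1.38 CPM in inducible libraries, and EPCAM one of 1.17 and 0.382 CPM. The list of these 5 epithelial genes and VIM, a mesenchymal marker, summed to between 8852 and 9982 CPM per library in CTRL cells and to between 5506 and 6435 CPM in C/EBPδ-inducible cells, and VIM made up most of it. The 4 acinar markers summed to at most 0.104 CPM and the 4 endocrine markers to at most 0.0951 CPM in any library. Of the other marker lists, hepatocyte and enterocyte genes summed to 1.88 CPM or less, leukocyte genes to 2.02 CPM or less, fibroblast genes to 1.89 CPM or less and endothelial genes to 2.71 CPM or less. ALB and APOA1, defining markers of liver, and PRSS1, INS, GCG and CD3E were at or near 0 in both lines. Other members of these lists had low levels. VIL1 reached 1.82 CPM and FABP1 0.530 CPM in CTRL libraries, and COL1A1 reached 1.89 CPM in inducible libraries. CD68 lay between 0.526 and 2.02 CPM in CTRL and between 0.713 and 1.81 CPM in inducible libraries.

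TM4SF4 was all but absent from CTRL cells and was present in every library of C/EBPδ-inducible cells, at a level that was 1.92-fold higher after 24 h of doxycycline than at 0 h. In CTRL cells, 1, 0 and 0 counts were found at 0 h, 0, 0 and 0 at 8 h, 0, 1 and 0 at 24 h, and 0, 1 and 1 at 48 h. In C/EBPδ-inducible cells, the 3 libraries held 99, 115 and 80 counts at 0 h, 95, 109 and 63 at 8 h, 190, 195 and 227 at 24 h, and 190, 223 and 147 at 48 h. No library of one line overlapped with any library of the other, as for 60.1% of genes tested at 0 h, 53.9% at 8 h, 61.3% at 24 h and 57.0% at 48 h. Scaled for depth, TM4SF4 stood at 5.00 ± 0.443 CPM at 0 h, 5.15 ± 0.417 CPM at 8 h, 9.62 ± 0.440 CPM at 24 h and 9.69 ± 1.10 CPM at 48 h in the inducible cells. In the order of these levels, 48 h and 24 h overlapped with each other, 8 h and 0 h overlapped with each other, and the libraries of the first pair all lay above those of the second.

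Since the CTRL groups were at the floor, the difference between lines has only a lower bound, computed against 3 counts in the CTRL library with the highest floor. TM4SF4 was at least 27.8-fold higher in C/EBPδ-inducible cells at 0 h, at least 28.4-fold at 8 h and at least 55.1-fold at 48 h. At 24 h, the values that chose the gene, it was at least 60.5-fold. No test is given, because TM4SF4 passed the filter on low counts only through the inducible libraries, in which it is high. The difference between lines was therefore present in cells that had not received doxycycline, beside a 5.45-fold higher CEBPD mRNA level at 0 h. How much of it goes with CEBPD, with the clones or with another difference between the lines cannot be told apart. The keratin levels of the inducible line, lower for KRT8, KRT18 and KRT19 but not for KRT7, and its summed endothelial markers (0.428 to 2.71 CPM per library, against 0 to 0.417 CPM in CTRL cells, mostly CDH5) go with the same split of the libraries, and their part in the result was not tested.

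Within the C/EBPδ-inducible line, TM4SF4 was 1.94-fold higher at 48 h than at 0 h (log2 fold change 0.93, SE 0.115, adjusted p = 2.16e-07 in edgeR's quasi-likelihood test, at a cut-off of an FDR of 0.01). At 24 h it was 1.92-fold above 0 h (log2 fold change 0.94, SE 0.106), which is given without a test, since the inducible libraries at 24 h are those that chose the gene. At 8 h the ratio was 1.03 (log2 fold change 0.05, SE 0.129, adjusted p = 0.799 in the same test), with a 95% interval of the log2 fold change from -0.20 to 0.30. The sign of this small value turned when 1 library was left out, to -0.015 without C/EBPδ-inducible replicate 3 at 0 h and to -0.021 without replicate 2 at 8 h. CEBPD itself stood 11.5-fold above 0 h at 8 h already, 14.3-fold at 24 h and 9.53-fold at 48 h. CEBPD was thus high at 8 h, when TM4SF4 was not called, and at 48 h TM4SF4 lay at its 24 h level while CEBPD lay below its own. Over the 12 inducible libraries, Pearson's r between TM4SF4 and CEBPD was 0.586 as a description of 4 time points, which share line and culture. These libraries include those at 24 h that chose the gene, and the 95th percentile of r with TM4SF4 over all genes was 0.79. In CTRL cells alone the gene was too low to be tested. With these libraries at the floor, the interaction of line and doxycycline was too imprecise to read. Its log2 values were 1.94 (SE 1.40) at 8 h, 1.09 (SE 1.82) at 24 h and 0.18 (SE 28.8) at 48 h. They are given without a test, for the same reason as the difference between lines.

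**Figure D1:**
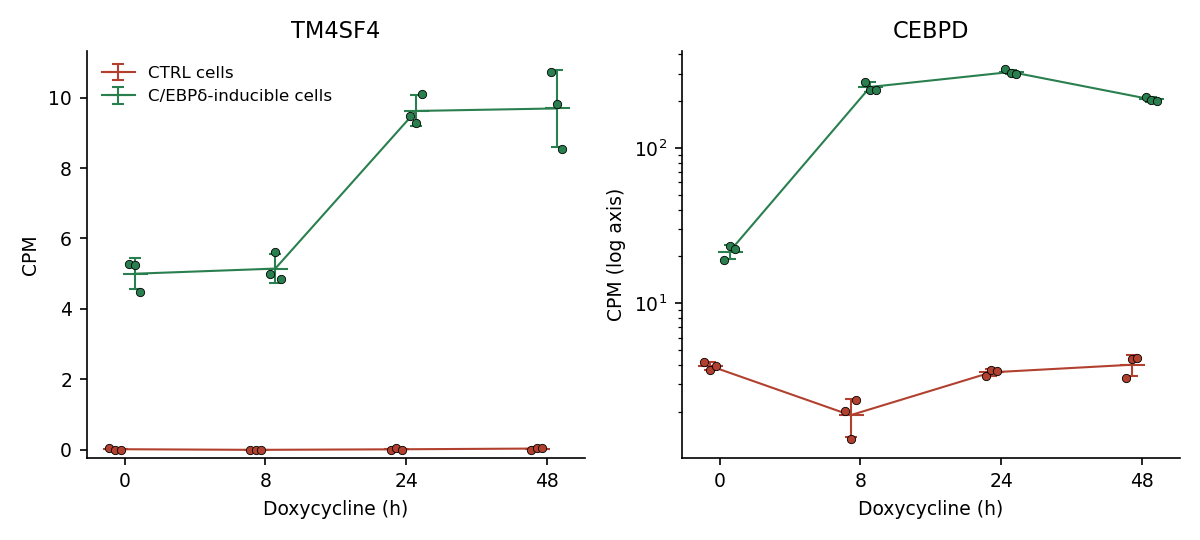
TM4SF4 (left, linear axis) and CEBPD (right, log axis) in CPM against hours of doxycycline, with time points evenly spaced, 1 point per library and mean ± SD (n = 3). TM4SF4 in C/EBPδ-inducible cells lies near 5.00 CPM at 0 h and 5.15 CPM at 8 h and at 9.62 CPM at 24 h, with CTRL libraries at or near 0, whereas CEBPD has reached 246 CPM at 8 h.

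TM4SF1 was the most abundant member in every library and was the one member whose change from 0 h passed a test of the difference between lines, at 8 h. In CTRL cells, its level lay at 383, 372 and 384 CPM at 0 h, 268, 309 and 336 CPM at 8 h, 268, 267 and 263 CPM at 24 h and 247, 273 and 266 CPM at 48 h. In C/EBPδ-inducible cells, it lay at 400.4, 396 and 398 CPM at 0 h, 529, 510.2 and 518 CPM at 8 h, 273, 293 and 282 CPM at 24 h, and 296, 313 and 311 CPM at 48 h. The inducible cells at 8 h stood above all other libraries, and the lowest group means were those of CTRL cells at 24 and 48 h, which overlapped with each other. The order of the group means was inducible 8 h, inducible 0 h, CTRL 0 h, inducible 48 h, CTRL 8 h, inducible 24 h, CTRL 24 h and CTRL 48 h, and neighbouring groups from the 4th to the 6th place overlapped in their libraries.

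At 8 h of doxycycline, TM4SF1 rose in C/EBPδ-inducible cells by 1.30-fold (log2 fold change 0.39, SE 0.0260, adjusted p = 1.61e-10 in edgeR's quasi-likelihood test), where 30.5% of all genes tested were called. In CTRL cells over the same 8 h, the log2 fold change was -0.29 (SE 0.0702, adjusted p = 0.0409), which did not pass the cut-off. It did pass without CTRL replicate 1 at 8 h (log2 fold change -0.22) and without CTRL replicate 3 at 8 h (-0.38), the lowest and the highest library of that group, and in 3 other settings given with the processing. Of genes tested, 1.70% (259) were called in CTRL cells at 8 h, a count that ranged from 92 without CTRL replicate 2 at 0 h to 774 without CTRL replicate 1 at 8 h. The difference between the lines in this change was 0.71 on the log2 scale (SE 0.0785, adjusted p = 0.000108 in the interaction test). Of all genes, 1.66% (269) passed that test, from 131 without CTRL replicate 2 or inducible replicate 1 at 8 h to 1196 without CTRL replicate 3 at 8 h.

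At 24 h TM4SF1 fell in both lines, by 0.52 on the log2 scale in CTRL cells (SE 0.0287, adjusted p = 1.01e-10 in edgeR's test) and by 0.50 in C/EBPδ-inducible cells (SE 0.0298, adjusted p = 5.03e-12). The interaction at 24 h was 0.033 (SE 0.0404, adjusted p = 0.713), with a 95% interval from -0.046 to 0.11, where 5.84% of genes passed, and became -0.0051 without C/EBPδ-inducible replicate 2 at 24 h. At 48 h the gene fell by 0.54 in CTRL cells (adjusted p = 1.68e-06) and by 0.40 in C/EBPδ-inducible cells (adjusted p = 9.65e-12), with an interaction of 0.13 (SE 0.0515, adjusted p = 0.125, 95% interval from 0.030 to 0.23), where 5.54% passed. The share of all genes called was 6.06% at 24 h and 30.0% at 48 h in CTRL cells, and 15.5% and 38.7% in C/EBPδ-inducible cells. The contrasts within a line share the 0 h libraries.

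Between lines, TM4SF1 was higher in C/EBPδ-inducible cells at 8 h (log2 fold change 0.78, SE 0.0711, adjusted p = 4.21e-06 in edgeR's test) and, by little, at 48 h (0.22, SE 0.0466, adjusted p = 0.00158). Of all genes tested, 43.9% passed between lines at 0 h, 31.8% at 8 h and 38.3% at 48 h. The call at 48 h was lost without C/EBPδ-inducible replicate 2 at 48 h (adjusted p = 0.0112) or replicate 3 (adjusted p = 0.0129). At 0 h the log2 fold change was 0.064 (SE 0.0263, adjusted p = 0.0475), which did not pass the cut-off although the libraries of the lines did not overlap. Non-overlapping libraries were found for 60.1% of genes tested at 0 h. With library totals in place of TMM scaling, the value at 0 h was 0.12 and passed. At 24 h, given as values only, the lines stood at 283 ± 9.59 CPM in inducible and 266 ± 2.91 CPM in CTRL cells.

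TM4SF18, which lies beside TM4SF1 on the same strand, was lower in C/EBPδ-inducible cells at every time. CTRL cells held 120.0, 105 and 112 CPM at 0 h, 64.3, 79.0 and 90.4 CPM at 8 h, 93.9, 86.3 and 90.0 CPM at 24 h, and 74.9, 94.2 and 87.4 CPM at 48 h. In C/EBPδ-inducible cells, the values were 34.2, 39.2 and 35.0 CPM at 0 h, 31.8, 31.4 and 31.8 CPM at 8 h, 24.9, 22.9 and 26.7 CPM at 24 h, and 31.2, 31.3 and 36.0 CPM at 48 h. The lowest CTRL library (64.3 CPM) lay well above the highest inducible library (39.2 CPM). Libraries of the lines did not overlap for 60.1% of genes tested at 0 h, 53.9% at 8 h, 61.3% at 24 h and 57.0% at 48 h. The log2 fold change between lines was -1.64 at 0 h (SE 0.0546, adjusted p = 3.88e-15 in edgeR's quasi-likelihood test), -1.28 at 8 h (SE 0.105, adjusted p = 1.89e-06) and -1.39 at 48 h (SE 0.0879, adjusted p = 1.77e-08). The share of all genes tested that passed between lines was 43.9% at 0 h, 31.8% at 8 h and 38.3% at 48 h. At 24 h the group means were 24.8 ± 1.89 CPM in inducible and 90.0 ± 3.84 CPM in CTRL cells. Within the 3-gene cluster, in cells without doxycycline, TM4SF4 was thus higher in the inducible line, TM4SF18 lower, and TM4SF1 within 1.05-fold of CTRL cells.

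After 24 h with doxycycline, TM4SF18 was lower than at 0 h in both lines. In CTRL cells it fell by 0.33 on the log2 scale at 24 h (SE 0.0457, adjusted p = 4.74e-05 in edgeR's test, but 0.0204 in a model of all 24 libraries) and by 0.40 at 48 h (SE 0.0756, adjusted p = 0.00107), and in C/EBPδ-inducible cells by 0.54 at 24 h (SE 0.0644, adjusted p = 5.52e-07). At 8 h the values were -0.51 in CTRL cells (adjusted p = 0.0230) and -0.19 in inducible cells (adjusted p = 0.00936). The value in CTRL cells did not pass and that in inducible cells did, and each changed sides of the cut-off without single libraries. The value in CTRL cells passed without CTRL replicate 1 at 8 h (log2 fold change -0.40) or without replicate 3 (-0.63), and the value in inducible cells failed without any one of 5 of its 6 libraries, all but C/EBPδ-inducible replicate 1 at 0 h, with log2 fold changes from -0.23 to -0.12 over all 6. At 48 h in inducible cells the value was -0.17 (adjusted p = 0.0323), and it passed without C/EBPδ-inducible replicate 3 at 48 h (-0.23). The interaction was 0.34 at 8 h (95% interval 0.084 to 0.61, adjusted p = 0.141), -0.21 at 24 h (-0.37 to -0.043, adjusted p = 0.135) and 0.23 at 48 h (0.0031 to 0.45, adjusted p = 0.244), none of which passed. The interval at 48 h leaves out 0 only because it spans 1.96 SE, as the unadjusted p of edgeR's test was 0.0621. The interaction at 8 h passed without CTRL replicate 3 at 8 h, at 0.47.

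**Figure D2:**
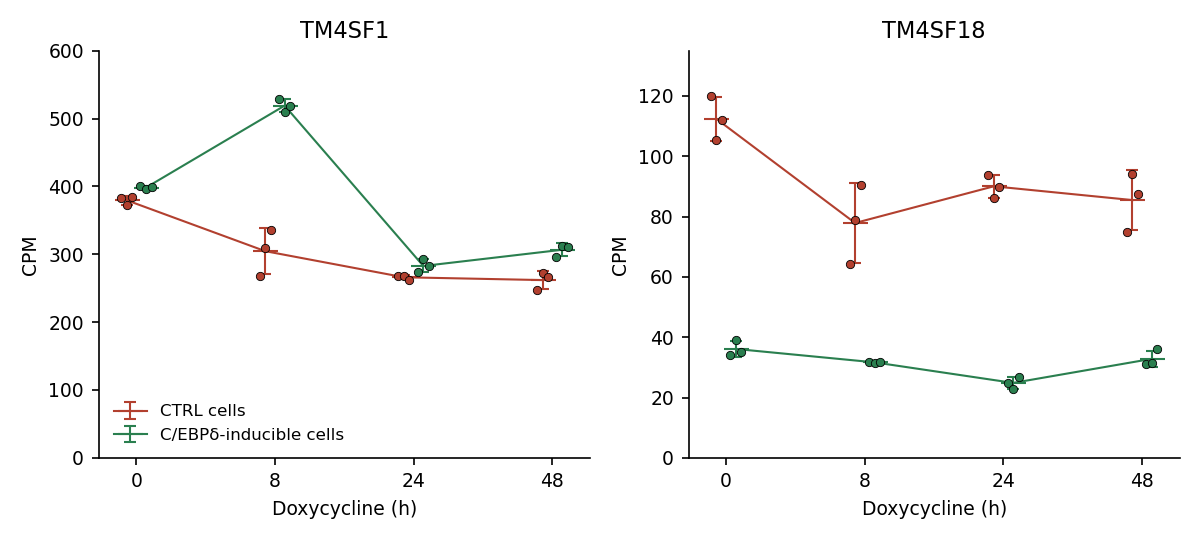
TM4SF1 (left) and TM4SF18 (right) in CPM against hours of doxycycline, with time points evenly spaced, 1 point per library and mean ± SD (n = 3). TM4SF1 peaks at 519 CPM in C/EBPδ-inducible cells at 8 h, whereas TM4SF18 stays between 22.9 and 39.2 CPM in inducible and between 64.3 and 120.0 CPM in CTRL libraries.

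**Figure D3:**
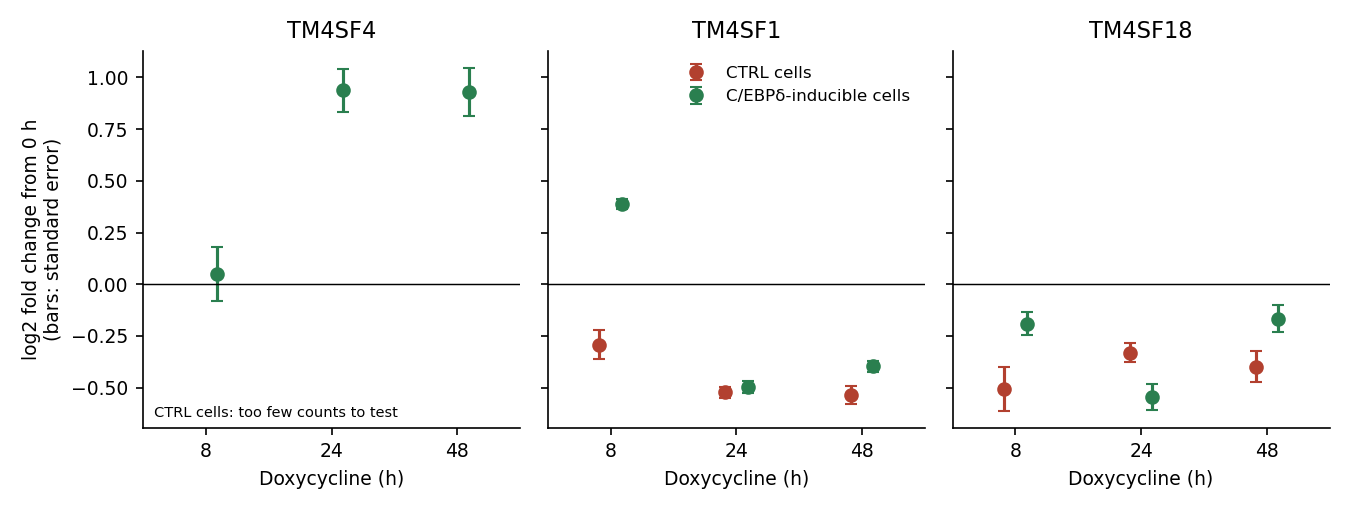
Log2 fold change from 0 h within each line for TM4SF4, TM4SF1 and TM4SF18 after 8, 24 and 48 h of doxycycline (points, edgeR estimates from 3 against 3 libraries; bars, standard error). TM4SF4 is at 0.05 at 8 h and 0.94 at 24 h in C/EBPδ-inducible cells, and TM4SF1 is at 0.39 in inducible and -0.29 in CTRL cells at 8 h.

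The other 3 members were at or near the floor, and none of them passed the filter on low counts in any comparison. TM4SF19 had 1 count in all 12 CTRL libraries together, in replicate 3 at 8 h. In C/EBPδ-inducible cells it had 28 counts, spread over 11 of 12 libraries, as 1, 3 and 5 at 0 h, 3, 2 and 4 at 8 h, 5, 2 and 0 at 24 h, and 1, 1 and 1 at 48 h. Over the 0, 8 and 48 h libraries, which were not used to choose the family, 21 counts stood against 1, at means of 0.133 and 0.00625 CPM. A two-sided exact permutation test of the line labels within time points gave p = 0.00025, the smallest that 8000 permutations allow, unadjusted. This test was 1 of 3 on the low members, was chosen after the counts had been seen, and gave the same p with library totals in place of TMM scaling. With the counts known, its result could be foreseen, and it permutes wells of the same cell populations, so that no conclusion is drawn from it. TM4SF19 shares 814 exon bases with the readthrough gene TM4SF19-DYNLT2B (0 to 1 counts per library) and 539 with the antisense TM4SF19-AS1 (3 to 13 counts), and the strand setting of the counting is not given in the sources used here.

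TM4SF5 had 5 counts in CTRL libraries and 1 in C/EBPδ-inducible libraries, the latter in replicate 3 at 24 h. Its exact permutation test over 0, 8 and 48 h gave p = 0.08, for 4 counts in CTRL and 0 in inducible cells. TM4SF20 had 5 counts in each line, never more than 3 in a library, with p = 0.85 in the same exact permutation test. For these 2 genes, a difference between lines was not detectable at this depth.

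Divided by the length of their annotated exons, the members can be set in order. TM4SF1 (3495 bases) stood between 75.0 and 149 CPM per kb in the 8 group means, TM4SF18 (4357 bases) between 5.70 and 25.8 CPM per kb, and TM4SF4 (1530 bases) between 3.27 and 6.33 CPM per kb in inducible cells. In C/EBPδ-inducible cells at 0 h, TM4SF18 was 2.54-fold as abundant per kb as TM4SF4. The ratio of TM4SF18 to TM4SF4 was 0.907 at 24 h and 1.19 at 48 h. The ratio of TM4SF1 to TM4SF18 per kb lay between 3.68 and 4.88 in CTRL groups and between 11.6 and 20.4 in inducible groups. TM4SF19, at most 0.0996 CPM per kb in a group mean, TM4SF5 and TM4SF20 followed far below. The exon lengths are unions over all annotated transcripts, and a transcript that leaves exons out would have a higher level per kb.

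**Figure D4:**
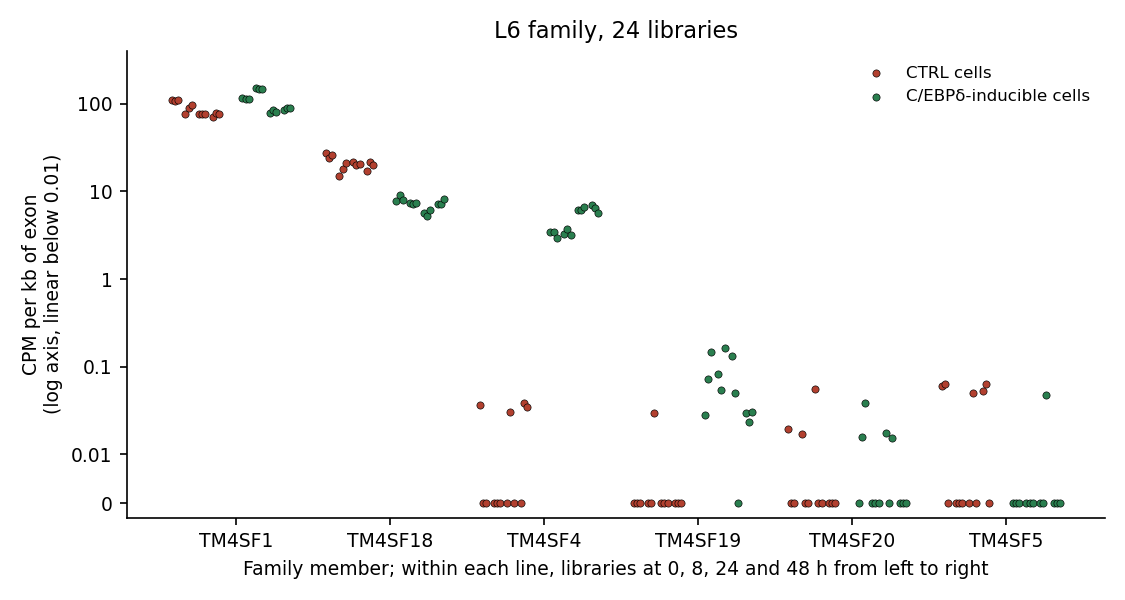
CPM per kb of annotated exon for the 6 members in all 24 libraries (log axis that is linear below 0.01), with the libraries of each line at 0, 8, 24 and 48 h from left to right. TM4SF1 group means lie between 75.0 and 149 CPM per kb, TM4SF4 lies at 0 or near it in CTRL and at 2.93 or above in C/EBPδ-inducible libraries, and TM4SF19, TM4SF20 and TM4SF5 lie near 0.

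The genes around TM4SF4 were examined to see how the lines differ over the region. Of 31 annotated genes with a start within 500 kb of the TM4SF4 start, 13 passed the filter at 0 h, of which 10 are not L6 genes. Among these 10, 1 was higher in the inducible line, 2 were lower and 7 did not pass, where 20.0% of all genes tested were higher and 23.9% lower, with a median log2 fold change of 0.10 against 0.0098 over all genes tested. GYG1, which primes glycogen synthesis, was higher by 0.61 (SE 0.0616), WWTR1, the Hippo pathway coactivator TAZ and the nearest tested gene 3′ of TM4SF4, was lower by 0.50 (log2 fold change -0.50, SE 0.0337), and HLTF, a DNA translocase, was at -0.15 (SE 0.0467, adjusted p = 0.0099 in edgeR's test). Antisense and intronic RNAs of WWTR1 did not pass. After 24 h of doxycycline in inducible cells, 1 of 11 tested neighbours outside the family was higher (HPS3, 0.31) and 1 was lower (WWTR1, -0.17), with 9 not called, where 7.33% of all genes tested were higher and 8.14% lower.

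**Figure D5:**
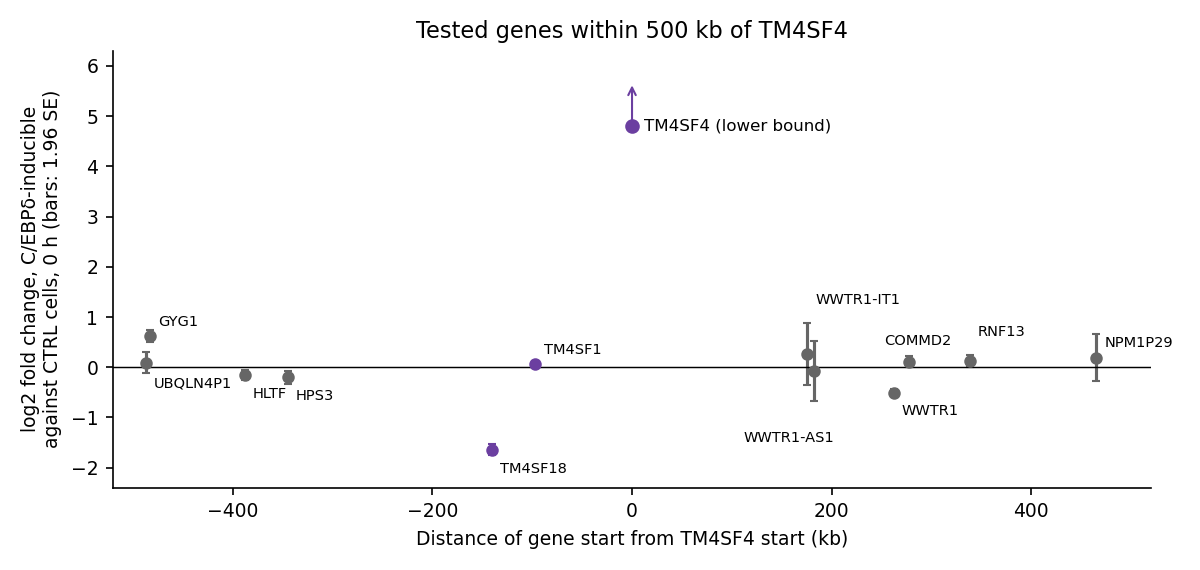
Log2 fold change between C/EBPδ-inducible and CTRL cells at 0 h (bars, 1.96 standard errors) for the 13 tested genes with a start within 500 kb of the TM4SF4 start, by distance between starts in kb. TM4SF4 is drawn at its lower bound of 4.80, TM4SF18 lies at -1.64, and the 10 genes outside the family lie between -0.50 and 0.61.

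Low counts beside and inside TM4SF4 were seen as well. WDR70P1, a processed pseudogene whose start lies at -9.87 kb from the TM4SF4 start, had 0 to 3 counts in CTRL libraries (10 in all) and 3 to 13 in C/EBPδ-inducible libraries (84 in all). EEF1A1P45, a processed pseudogene within TM4SF4 that shares 0 exon bases with it, had 3 counts over the CTRL and 56 over the inducible libraries, of which 9, 15 and 10 fell in the libraries at 24 h. Neither passed the filter. EEF1A1P45 lies on the same strand as TM4SF4. Reads of a processed pseudogene can stem from its parent gene, and the source of the reads of these pseudogenes was not tested. CP, which codes for ceruloplasmin and lies on the other side of TM4SF18, had 26 to 57 counts in 4 libraries, CTRL replicates 2 and 3 at 0 h and at 24 h, and at most 2 counts in 19 of the other 20. TM4SF1-AS1, which starts next to TM4SF1 on the other strand, had 3 to 18 counts, and TM4SF18-AS1, which shares 124 exon bases with TM4SF18, had 0 to 5, against 414 or more for TM4SF18 itself.

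The tetraspanins, to which the L6 proteins bear a likeness in topology, had 33 members in the table, of which 19 were tested at 0 h. In the inducible line, 3 of these were higher and 7 lower, where 20.0% of all genes tested were higher and 23.9% lower, with a median log2 fold change of -0.21 against 0.0098 over all genes. TSPAN5, a regulator of ADAM10 trafficking, was at 0.801 ± 0.0173 CPM in inducible and 0.166 ± 0.110 CPM in CTRL cells. TSPAN4, a constituent of migrasomes, was lower (log2 fold change -0.63, SE 0.0763), as were CD82, known as a metastasis suppressor (-0.63, SE 0.126), and TSPAN15, another ADAM10 partner (-0.43, SE 0.102). After 24 h of doxycycline in inducible cells, 1 of 18 tested tetraspanins was higher and 4 were lower (7.33% and 8.14% of all genes tested), with a median of -0.057 against 0.0036 over all genes. CD9, a motility-related tetraspanin, fell from 85.9 ± 1.08 to 44.3 ± 3.62 CPM. TSPAN15 (log2 fold change -0.74), TSPAN1 (-0.70) and TSPAN4 (-0.60) fell too. In CTRL cells over the same 24 h, TSPAN1 fell as well (-0.77, adjusted p = 1.31e-07 in edgeR's test), as did CD9 (-0.21, adjusted p = 0.00242). There, TSPAN15 (-0.22) and TSPAN4 (-0.27) did not pass. CD82 overlaps in exons with an antisense gene, and the counts of the pair may not be fully separate.

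Of the 13 genes known as partners or effectors of L6 proteins, all were tested, with 3 higher and 8 lower in the inducible line at 0 h (20.0% and 23.9% of all genes tested) and a median log2 fold change of -0.37 against 0.0098 over all genes. DDR1, a collagen receptor that TM4SF1 is known to bind, was at 12.7 ± 1.09 CPM in inducible and 46.5 ± 1.63 CPM in CTRL cells (log2 fold change -1.88, SE 0.0652, adjusted p = 6.88e-15 in edgeR's quasi-likelihood test). CD44, the hyaluronan receptor, was lower (-0.78, SE 0.0209), as was CREB3L1, the substrate tied to TM4SF20 (-0.67, SE 0.0698), while EGFR was higher (0.55, SE 0.0304). After 24 h of doxycycline in inducible cells, 1 partner was higher and 6 were lower (7.33% and 8.14% of all genes tested), with a median of -0.099 against 0.0036 over all genes. EGFR fell from 253 ± 2.44 to 136 ± 3.41 CPM and STAT3 from 375 ± 8.41 to 232 ± 0.713 CPM. The kinase JAK2 (log2 fold change -0.63, SE 0.0894) and CREB3L1 (-0.48, SE 0.0806) fell too. In CTRL cells over the same 24 h, STAT3 fell by little (-0.12, adjusted p = 0.00791 in edgeR's test) and CREB3L1 rose (0.40, adjusted p = 7.79e-05). There, EGFR (0.12) and JAK2 (-0.22) did not pass. CD44 and EGFR have exon overlaps with antisense or divergent genes, whose counts may not be fully separate.

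TM4SF4 is known from endoderm-derived organs, and 20 transcription factors of the endoderm were therefore counted, of which 6 passed the filter at 0 h. Among them, 1 was higher (CDX2, 4.10 ± 0.734 against 2.50 ± 0.180 CPM) and 2 were lower in the inducible line, beside 20.0% and 23.9% of all genes tested. SOX9, a ductal factor, was at 100.3 ± 4.34 CPM in inducible and 198 ± 12.7 CPM in CTRL cells. NR5A2, a nuclear receptor of acinar cells and liver, was at 1.53 ± 0.246 CPM in CTRL cells and at the floor in inducible cells, at least 9.10-fold lower. After 24 h of doxycycline in inducible cells, 5 were tested. GATA4 was higher (log2 fold change 0.43, SE 0.0618) and SOX9 lower (-0.64, SE 0.0411), beside 7.33% and 8.14% of all genes tested.

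The genes whose log2(CPM + 1) followed TM4SF4 most closely over the 12 inducible libraries were SELENOW, SVIL, PRND, TBL1X and MVK, with Pearson's r from 0.97 to 0.98 among 17019 genes. The 12 points are 4 time points of 1 line and include the libraries at 24 h that chose TM4SF4. The 95th percentile of r over all genes was 0.79, so that such values describe a shape shared by many genes. PRND, which codes for the prion-like protein doppel, stood at 28.4 ± 2.13 CPM at 0 h, 27.5 ± 0.977 at 8 h, 113 ± 4.02 at 24 h and 119 ± 3.78 at 48 h in inducible cells, and at 58.6 ± 1.84 CPM in CTRL cells at 0 h. SVIL, which codes for the actin-binding supervillin, stood at 204 ± 8.26, 203 ± 2.09, 258 ± 2.31 and 254 ± 7.95 CPM over the same times. PRND was thus lower in inducible than in CTRL cells at 0 h, and SELENOW too (37.9 ± 1.92 against 49.2 ± 1.48 CPM), unlike TM4SF4.

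TM4SF1 over the same 12 libraries was followed most closely by KIF21A, AKAP13, RGL1, PARP4 and SYNJ1, with r from 0.98 to 0.99. KIF21A, a kinesin, stood at 28.4 ± 0.413, 37.7 ± 1.03, 22.6 ± 0.699 and 24.1 ± 1.15 CPM at 0, 8, 24 and 48 h. Over all 24 libraries and 17022 genes, KLF6 (r = 0.93), SPAG9, BIRC3, SLC38A4 and FBXO30 were the closest, and the 95th percentile was 0.59. KLF6, a zinc finger factor, was at 272 ± 2.77 CPM at 0 h, 306 ± 3.91 at 8 h, 182 ± 6.32 at 24 h and 212 ± 5.70 at 48 h in inducible cells, and at 247 ± 2.36 and 240 ± 17.1 CPM in CTRL cells at 0 and 8 h.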

How the data were processed

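RNA-sequencing counts were analysed for 24 libraries of MIA PaCa-2 cells (2 lines, 4 time points, 3 wells each). Reads were trimmed (Trimmomatic), aligned to GRCh38 (HISAT2) and assigned to genes (HTSeq) by the authors. The deposited values are raw counts without normalization, filter or pooling. The submitters' processing notes list Trimmomatic 0.36 and HISAT2 2.3.4.3, which differ from the versions in the paper, and the strand setting and annotation filter are not given in the sources used here. Gene coordinates come from GENCODE release 44, in which 56558 of 60675 identifiers matched.

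For testing, edgeR 4.0.16 in R 4.3.3 was used, with TMM scaling, filterByExpr and its quasi-likelihood test on the groups compared. P values were two-sided and adjusted over all genes tested with the Benjamini-Hochberg method, with a cut-off of 0.01. A 95% interval is the log2 fold change ± 1.96 SE. This normal multiple makes the interval narrower than the test allows for with few libraries, so that no call rests on it. The interaction used the 4 groups of both lines at 0 h and one later time. For 3 against 3 libraries, the smallest two-sided p of an exact permutation test is 0.1. Bounds and floors cover counting error only.

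The members, lists and tests were chosen with earlier results of these data known. Named were all members, their overlapping genes, genes with a start within 500 kb of TM4SF4, up to 4 called genes of each list by size of change in 2 contrasts (lines at 0 h, and inducible cells at 24 h against 0 h), CEBPD, and the 5 genes most like TM4SF4 or TM4SF1. WDR70P1, EEF1A1P45 and CP were singled out after their values were seen, as were the examples among the most similar genes. Alternatives were DESeq2 1.42.0, library totals without TMM, no filter, a minimum of 10 counts per library, the replicate number as a block, one model for all 24 libraries, and leaving out each library. The replicate numbers come from the labels. Same-numbered wells deviated together (r = 0.14, 0.15 and 0.19) only between CTRL cells at 0 and 24 h, and the block changed no call of a member there. The files hold no column that was left unassigned.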

Additional observations from a re-analysis of the deposited data

Results flagged for a closer look

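The change of TM4SF1 from 0 h to 8 h with doxycycline differed between the lines, by 0.71 on the log2 scale (SE 0.0785, adjusted p = 0.000108 in edgeR's interaction test over 12 libraries). Mean levels went from 398 CPM at 0 h to 519 CPM at 8 h in C/EBPδ-inducible cells, and from 380 to 305 CPM in CTRL cells. Over the alternatives, leaving out each library included, the value lay between 0.63 and 0.79 and the adjusted p was at most 0.00086. The CTRL libraries at 8 h spread from 268 to 336 CPM, more than those of the other groups, and the part of this spread in the result was not tested.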

How the results depend on the processing

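Of 429 values of members under an alternative, 399 kept direction and side of the cut-off, 11 lost the call, 16 gained it and 3 changed sign. The 429 include comparisons given above without a test. These are TM4SF4 between lines, TM4SF4 in inducible cells at 24 h, and TM4SF1 and TM4SF18 between lines at 24 h. For these, a call that was kept is no independent check. Of 174 counts of called genes, 144 stayed within 1.5 times. The causes of the changes were not tested. With the model of all 24 libraries, the genes called were 3127 for C/EBPδ-inducible cells at 8 h (from 4693), 582 for CTRL cells at 24 h (from 921), 1229 for CTRL cells at 8 h (from 259), 603 for the interaction at 24 h (from 948) and 441 at 8 h (from 269). CTRL cells at 8 h gave 403 with DESeq2 and 843 without a filter, and the interaction at 8 h gave 936 without a filter. Without 1 library, the count ranged from 92 (CTRL replicate 2 at 0 h) to 774 (CTRL replicate 1 at 8 h) for CTRL cells at 8 h, from 505 (CTRL replicate 2 at 24 h) to 1104 (CTRL replicate 1 at 0 h) for CTRL cells at 24 h, and from 131 (CTRL replicate 2 or inducible replicate 1 at 8 h) to 1196 (CTRL replicate 3 at 8 h) for the interaction at 8 h. Blocking on the replicate number, CTRL cells at 8 h gave 87 and the interaction at 8 h 162, and the block changed no call of a member. Those wells share only a number. Beside the paired CTRL cells at 0 and 24 h, every library correlated best with its own number between lines at 8 h, between inducible cells at 0 and 48 h and between inducible cells at 0 h and CTRL cells at 24 h, a hint from the data and not the design.

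TM4SF1 in CTRL cells at 8 h passed with DESeq2 (-0.31), without a filter (-0.32) and with all 24 libraries (-0.32), and ranged from -0.38 to -0.22 without 1 library. TM4SF18 there passed likewise (-0.52, -0.53 and -0.53, range -0.63 to -0.40). TM4SF18 in inducible cells at 8 h lost the call with DESeq2 (-0.18), library totals (-0.16) and all 24 libraries (-0.18), with a range from -0.23 to -0.12. At 24 h in CTRL cells it lost the call with all 24 libraries (-0.33), and in inducible cells at 48 h it ranged from -0.23 to -0.094. Its interaction at 8 h passed without a filter (0.35) and ranged from 0.22 to 0.47. TM4SF1 between lines passed at 0 h with library totals (0.12) and ranged from 0.17 to 0.24 at 48 h. The interaction of TM4SF1 at 24 h ranged from -0.0051 to 0.056. TM4SF4 in inducible cells at 8 h ranged from -0.021 to 0.091, with -0.015 as the other value that changed sign. TM4SF4 at 48 h against 0 h kept its call in every alternative run, from 0.85 to 1.00, and its value at 24 h lay between 0.87 and 0.97. Depth limits TM4SF5, TM4SF19 and TM4SF20, and TM4SF4 in CTRL cells, to bounds or counts.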
